A study of Mus musculus with 8 samples.

Results

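The mitochondrial ribosomal RNA transcription unit was described in livers of SostPB/- and Sost-/- mice. It consists of 5 genes: the rRNA genes mt-Rnr1 and mt-Rnr2 and the tRNA genes mt-Tf, mt-Tv and mt-Tl1 that lie beside them. The members were chosen by their symbol in the authors' count table, where each had 1 row, so they make up 5 of 55416 rows and 5 of the 37 mitochondrial rows. The rule itself uses no measured value. Poly-A RNA was sequenced from 8 livers, 1 library per mouse, with 4 SostPB/- and 4 Sost-/- mice, all kept on the MCD diet, which by its usual meaning lacks methionine and choline and brings on steatohepatitis. Mice of both genotypes thus carry at least 1 Sost null allele and differ in the other, which is PB in one group and null in the other. The Sost gene codes for sclerostin, a protein that cells secrete and that dampens Wnt signalling, and the study set out to learn how too much of it bears on steatohepatitis. The meaning of PB is not spelled out in the labels, nor are age and sex.

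In mammals, transcription of the heavy strand of mitochondrial DNA starts just before the tRNA for phenylalanine and runs through both rRNA genes into the coding genes. The tRNAs between the longer genes mark where the transcript is cut, by RNase P at the 5′ end of each tRNA and by ELAC2 at the 3′ end. The rRNAs build the mitochondrial ribosome, which makes the membrane subunits of the respiratory chain, and hepatocytes are rich in mitochondria. Mitochondrial mRNAs carry added poly-A tails, while the rRNAs carry short ones, so a poly-A library does not measure rRNA and mRNA with equal yield. A protein of the mTERF family binds inside the gene for the leucine tRNA, at the end of the unit.

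On the GRCm38 assembly with GENCODE M21 annotation, the 5 genes lie end to end on the plus strand of the mitochondrial chromosome. mt-Tf, the tRNA for phenylalanine, lies at chrM:1-68, and 1 base separates it from mt-Rnr1, the small-subunit rRNA, at chrM:70-1024. mt-Tv, the tRNA for valine, at chrM:1025-1093, mt-Rnr2, the large-subunit rRNA, at chrM:1094-2675, and mt-Tl1, the tRNA for leucine, at chrM:2676-2750, follow with 0 bases between neighbours. mt-Nd1, a subunit of complex I, starts at the next base and lies at chrM:2751-3707. The IDs and versions of all 5 members in the table were equal to those of GENCODE M21. The 3 tRNA genes are printed in full, 5′ to 3′ as DNA, since they are the spacers of the unit, with the anticodon in capitals.
mt-Tf: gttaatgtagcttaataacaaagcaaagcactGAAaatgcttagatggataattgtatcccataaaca
mt-Tv: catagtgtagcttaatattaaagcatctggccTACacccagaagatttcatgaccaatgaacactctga
mt-Tl1: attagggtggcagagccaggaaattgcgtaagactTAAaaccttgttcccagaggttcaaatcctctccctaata

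The rRNA genes are rich in adenine, which made up 37.8% of the 955 bases of mt-Rnr1 and 38.2% of the 1582 bases of mt-Rnr2. Because RNA was captured by poly-A, the longest run of A inside each rRNA is shown with 25 bases on each side and the run in capitals. The run held 5 bases in mt-Rnr1 and 7 in mt-Rnr2, against 3 (mt-Nd6) to 8 (mt-Nd2) in the coding genes. mt-Rnr1 held 0 runs of 6 or more A and mt-Rnr2 held 4, against at most 3 in a coding gene (mt-Nd2).
mt-Rnr1, chrM:680-734: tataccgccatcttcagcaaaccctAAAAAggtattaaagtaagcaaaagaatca
mt-Rnr2, chrM:1463-1519: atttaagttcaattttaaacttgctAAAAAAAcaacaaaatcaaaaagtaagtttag

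The 3′ ends of the rRNA genes, where short A tails are added in mammals, are shown by their last 60 bases with the final 10 in capitals. Neither gene ends in a run of A.
mt-Rnr1, chrM:965-1024: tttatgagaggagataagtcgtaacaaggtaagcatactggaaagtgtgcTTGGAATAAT
mt-Rnr2, chrM:2616-2675: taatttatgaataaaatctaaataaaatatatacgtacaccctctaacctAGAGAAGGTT

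The libraries held 9578086 to 14613316 counts in SostPB/- and 9919069 to 14932773 in Sost-/- livers. Mitochondrial rows took 54.7% to 64.3% of them in SostPB/- and 47.4% to 59.2% in Sost-/- livers. Row names outside the mitochondrial genome were not relied on. Of 8 hepatocyte markers 4 rows (Ttr, Ahsg, Apob and Cyp2e1) held 0 counts in all libraries. Over the 8 libraries Apoa1 averaged 4.25 counts and Alb (albumin) 43.8, while Baat averaged 4997 and Cyp7a1 6989.6. The liver label was therefore not checked by markers, and the row named Sost, also at 0 in all libraries, does not give the level of that gene. Of 24 nuclear factors that transcribe mitochondrial DNA or mature its RNA, 11 rows were at 0, 5 entered the test, and 0 passed in edgeR with 0 at an unadjusted p under 0.05. These are counts of rows, and no gene level is read from them. Among the mitochondrial rows, the 13 coding rows were among the 17 highest of 37 per kb, and 20 of 22 tRNA rows lay below them.

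The rRNAs were abundant in the poly-A libraries of both genotypes, and mt-Rnr1 was read more densely than mt-Rnr2. mt-Rnr1 had 124389, 186413, 91590 and 91946 counts in SostPB/- livers and 236235, 130582, 147134 and 100577 in Sost-/- livers. mt-Rnr2 had 117970, 162231, 89995 and 88966 counts in SostPB/- livers and 229832, 114388, 145886 and 93609 in Sost-/- livers. The groups overlapped for both, and the highest library of each group, SostPB/- replicate 2 and Sost-/- replicate 1, was also its deepest. Together the rRNAs held 3.59% ± 0.893 of mitochondrial counts in SostPB/- and 4.90% ± 0.710 in Sost-/- livers (SD, n = 4).

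Levels between genes were compared as counts per 1000000 counts of the library and kb of gene (CPM per kb), after scaling by TMM, a factor that evens out library composition. mt-Rnr1 stood at 12130.0 ± 2137 CPM per kb in SostPB/- and 13159 ± 4023 in Sost-/- livers (SD, n = 4). mt-Rnr2 stood at 6860 ± 932 CPM per kb in SostPB/- and 7533 ± 2536 in Sost-/- livers (SD, n = 4). Among the 37 mitochondrial rows mt-Rnr1 ranked 13 and mt-Rnr2 ranked 15 by this level. mt-Rnr1 and its neighbour above, mt-Nd4l, did not differ beyond their spread, since mt-Nd4l was higher in only 3 of 8 libraries. mt-Rnr2 was above mt-Te, the tRNA row next below it, in 4 of 8 libraries, and the serine tRNA row mt-Ts1, ranked between the rRNAs, was above mt-Rnr2 in 7 of 8.

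Read density was far lower at the tRNA genes than at the rRNA genes, and mt-Tl1 kept far more reads than the other 2. mt-Tl1 had 631, 1472, 884 and 1003 counts in SostPB/- livers and 1536, 1376, 843 and 738 in Sost-/- livers. mt-Tv had 11, 9, 5 and 5 counts in SostPB/- livers and 14, 14, 11 and 6 in Sost-/- livers. mt-Tf had 5, 5, 5 and 4 counts in SostPB/- livers and 10, 7, 7 and 5 in Sost-/- livers. In counts, the groups overlapped or touched for all 3, and mt-Tf and mt-Tv lay near the limit of counting.

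Per kb, mt-Tl1 stood at 1255 ± 270.4 CPM in SostPB/- and 1234 ± 389.7 CPM in Sost-/- livers (SD, n = 4), which ranked it 10 among the 22 mitochondrial tRNA rows. mt-Tv stood at 10.4 ± 4.01 CPM per kb in SostPB/- and 13.5 ± 4.34 in Sost-/- livers (SD, n = 4). mt-Tf stood at 6.85 ± 1.44 CPM per kb in SostPB/- and 8.77 ± 1.95 in Sost-/- livers (SD, n = 4), and over the 8 libraries it ranked last of the 37 rows. mt-Tv and the glycine tRNA row mt-Tg, at 9.79 ± 6.57 CPM per kb in SostPB/- and 15.95 ± 11.4 in Sost-/- livers (SD, n = 4), could not be ordered, since each was higher in 4 of 8 libraries. The level per kb of mt-Rnr2 was on average 6.05 times that of mt-Tl1, and that of mt-Nd1, on its other side, 41.4 times. That of mt-Rnr1 was 1129.5 times that of mt-Tv, and 1663 times that of mt-Tf. How a read that spans a tRNA and its neighbour was assigned is not known here, nor is the read length.

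**Figure D1:**
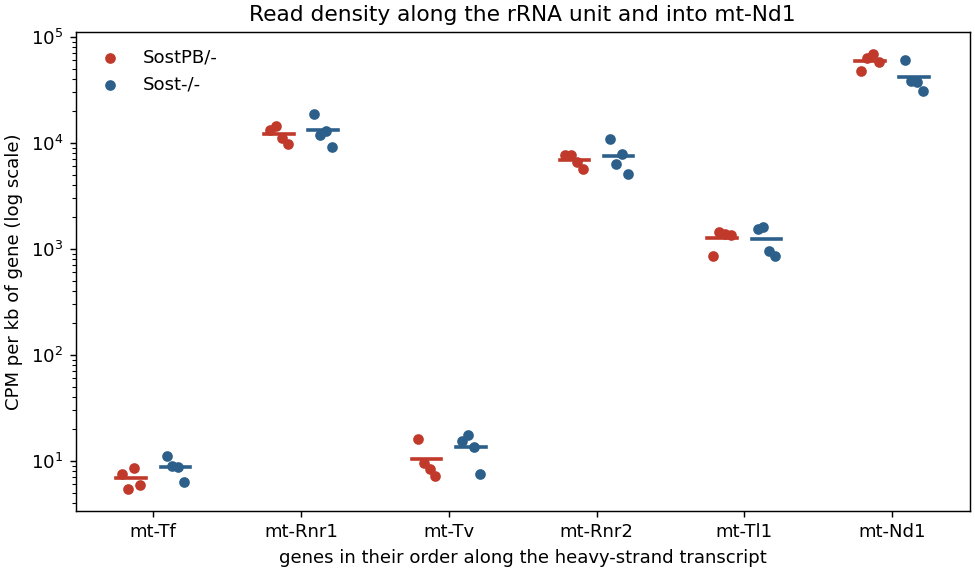
Level per kb of each gene of the unit and of mt-Nd1, in CPM per kb on a log axis, with 1 point per library and a line at the group mean (SostPB/- left, Sost-/- right). The rRNAs and mt-Nd1 lie at the top, mt-Tl1 averages 1255 CPM per kb in SostPB/- and 1234 in Sost-/- livers, and mt-Tf and mt-Tv lie at the bottom.

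mt-Rnr1 and mt-Rnr2 moved together from mouse to mouse, and mt-Tl1 followed them less closely. mt-Rnr2 had 0.948, 0.870, 0.983 and 0.968 counts per mt-Rnr1 count in SostPB/- livers and 0.973, 0.876, 0.992 and 0.931 in Sost-/- livers. The ratio stayed between 0.870 and 0.992 although the counts themselves varied more than 2-fold. Per base of gene it averaged 0.569 ± 0.0302 in SostPB/- and 0.569 ± 0.0310 in Sost-/- livers (SD, n = 4). The log2 difference between genotypes was -0.00081 with a standard error of 0.056 (two-sided, exact permutation test with 4 mice per group, p = 1.0).

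Of the 34 other mitochondrial rows that averaged 10 counts or more, mt-Rnr2 was the one whose pattern was most like that of mt-Rnr1. The measure was the SD over the 8 libraries of the log2 ratio of the counts, which was 0.073 for this pair. Next for mt-Rnr1 came the tRNA rows mt-Tp at 0.20 and mt-Tn at 0.24, and for mt-Rnr2 mt-Tp at 0.19 and mt-Tn at 0.27, both annotated on the opposite strand. mt-Tl1 was not most like either of its neighbours: the SD was 0.44 against mt-Rnr2 and 0.36 against mt-Nd1. The closest to mt-Tl1 were mt-Ty at 0.15 and mt-Tc at 0.19, the tRNA rows for tyrosine and cysteine. Both lie further on among the coding genes, are annotated on the strand opposite to mt-Tl1, and were named after their values were seen.

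Levels of the members were next set side by side between genotypes. mt-Rnr1 averaged 11584 ± 2041 CPM in SostPB/- and 12567 ± 3842 CPM in Sost-/- livers (SD, n = 4), a log2 fold change of -0.12 with a standard error of 0.22. mt-Rnr2 averaged 10852 ± 1475 CPM in SostPB/- and 11918 ± 4011 CPM in Sost-/- livers (SD, n = 4), a log2 fold change of -0.14 with a standard error of 0.22. mt-Tl1 averaged 94.2 ± 20.3 CPM in SostPB/- and 92.6 ± 29.2 CPM in Sost-/- livers (SD, n = 4), a log2 fold change of 0.02 with a standard error of 0.25. The groups overlapped in all 3, and the adjusted p was 0.981 for each rRNA and 0.996 for mt-Tl1 in edgeR's quasi-likelihood test with Benjamini-Hochberg adjustment over 10020 rows.

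These 3 members passed the filter on low counts and mt-Tf and mt-Tv did not. At an adjusted p of 0.05 edgeR called 0 of the 3 and 0 of all 10020 rows (0%). An unadjusted p under 0.05 was found for 0 of the 3 and for 646 rows in all (6.45%). CPM values of the groups were without overlap in 0 of the 3, against 2.19% of all rows that were lower and 1.74% that were higher in SostPB/- livers. DESeq2 called 53 of 12666 rows (0.418%) and 0 of the 5 members. Fitted without the filter, mt-Tf stood at a log2 fold change of -0.37 (SE 1.06) and mt-Tv at -0.39 (SE 0.87), with edgeR's adjusted p of 0.962 and 0.948. The rRNA fold changes rested on Sost-/- replicate 1, at 17809 CPM of mt-Rnr1 and 17326 CPM of mt-Rnr2 the highest of all libraries. Without it they were 0.10 for each rRNA (edgeR's adjusted p = 0.960 for both). In bulk RNA, fewer cells of a type and less RNA per cell cannot be told apart.

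With all 8 libraries, the rRNAs stood apart in sign from the coding rows of the same chromosome. Both rRNA fold changes were smaller than their standard errors. The log2 fold change was above 0 in 13 of 13 coding rows, at a median of 0.42, while both rRNAs were negative and the median over all rows tested was -0.01. In edgeR 0 of the 13 were called, and 6 of 13 reached an unadjusted p under 0.05, against 6.45% of all rows. Without Sost-/- replicate 1 edgeR called 1 of the 13, mt-Co2, a subunit of complex IV, at a log2 fold change of 1.34 (SE 0.16, adjusted p = 0.0317), against 4 of 10489 rows (0.0381%). In that fit 13 of 13 coding rows reached an unadjusted p under 0.05, against 6.97% of all rows, and their median was 0.63. Both rRNAs were also above 0 there, at 0.10. Without Sost-/- replicate 2, 3 or 4, 0 of 13 coding rows reached an unadjusted p under 0.05 in edgeR. Of all rows, 600 of 10431, 491 of 10353 and 474 of 10443 did in these fits. Without 1 of the SostPB/- libraries, 1 to 7 of 13 coding rows did, against 517 to 770 of the 10483 to 10552 rows tested. In the fit with all 8 libraries mt-Nd1, directly after the unit, was at 0.52 (SE 0.21, edgeR's adjusted p = 0.736). With plain library totals, a scaling that moves the median of all rows to -0.21, the rRNAs were at -0.27 and -0.29 and 12 of 13 coding rows were positive. Scaled by coding counts, 9 of 13 coding rows were positive and 4 negative.

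Of the other 19 tRNA rows 18 were tested, 15 with a positive and 3 with a negative log2 fold change and a median of 0.26, and 0 passed in edgeR. mt-Ts1, the highest of these per kb, was at 0.38 (SE 0.14, edgeR's adjusted p = 0.693). mt-Tg, the lowest, held 3 to 27 counts and did not pass the filter. mt-Tw, for tryptophan, had the smallest p and was at 1.35 (SE 0.36), with an adjusted p of 0.556 in edgeR and 0.0407 in DESeq2.

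**Figure D2:**
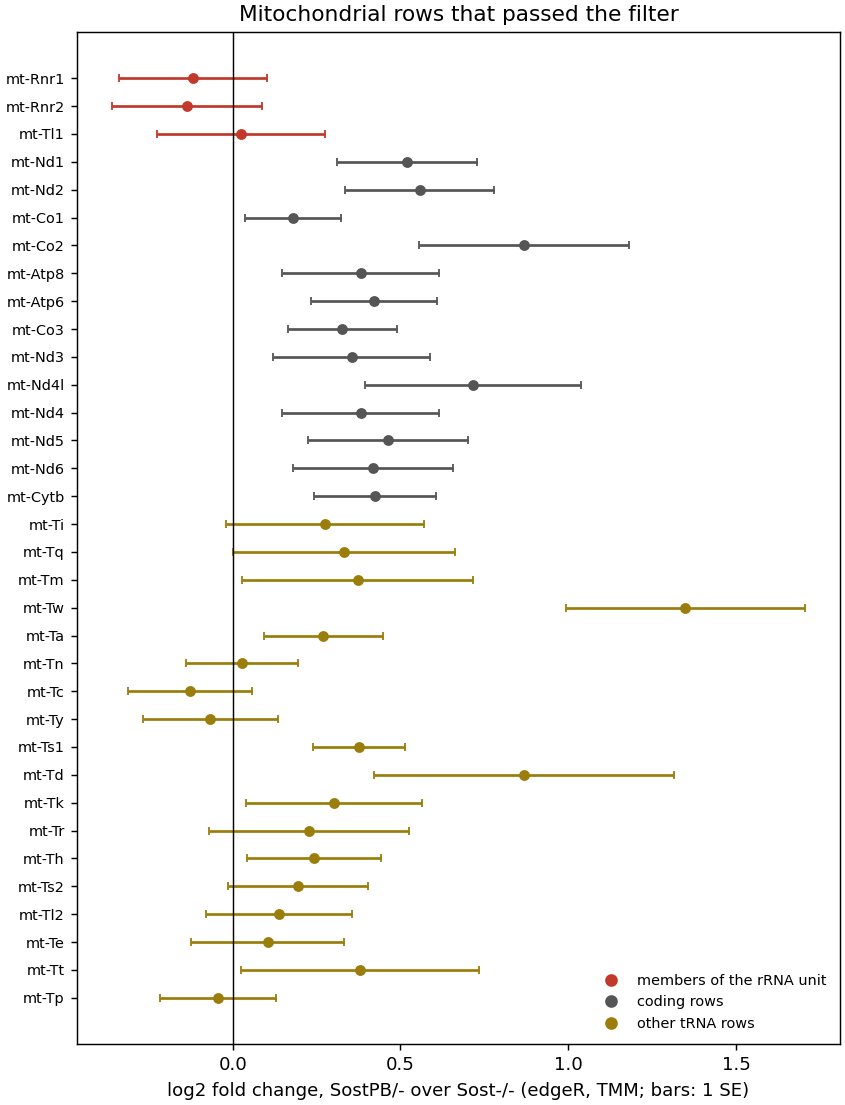
Log2 fold change of SostPB/- over Sost-/- livers for the 34 mitochondrial rows that passed the filter, from edgeR with TMM scaling (points, bars 1 standard error), with members of the unit first, then coding rows and other tRNA rows. mt-Rnr1 and mt-Rnr2 lie at -0.12 and -0.14, and all 13 coding rows lie right of 0. No row in it passed an adjusted p of 0.05 in this fit.

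The members were set against the summed counts of the 13 coding rows of the same library, a ratio that needs no scaling factor. They were lower in SostPB/- livers on average, and the groups overlapped for all but mt-Tf. No adjusted p was under 0.05, a limit that this test could hardly reach with 4 mice per group. mt-Rnr1 had 2.50, 2.26, 1.41 and 1.57 counts per 100 coding counts in SostPB/- livers and 2.83, 2.53, 3.04 and 2.24 in Sost-/- livers. SostPB/- replicates 3 and 4 lay below every Sost-/- library, and replicates 1 and 2 fell within the Sost-/- range. The means were 1.93 ± 0.525 in SostPB/- and 2.66 ± 0.352 in Sost-/- livers, a log2 difference of -0.49 with a standard error of 0.22 (two-sided, exact permutation test: p = 0.0857, adjusted p = 0.249 over 24 rows, n = 4 per group).

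mt-Rnr2 had 2.37, 1.96, 1.39 and 1.52 counts per 100 coding counts in SostPB/- livers and 2.76, 2.21, 3.02 and 2.09 in Sost-/- livers. SostPB/- replicate 1 lay within the Sost-/- range, and the other 3 lay below it. The means were 1.81 ± 0.447 in SostPB/- and 2.52 ± 0.443 in Sost-/- livers, a log2 difference of -0.49 with a standard error of 0.22 (two-sided, exact permutation test: p = 0.114, adjusted p = 0.249 over 24 rows, n = 4 per group). The 24 rows are all mitochondrial rows that are not coding. With 4 mice per group no exact p can lie below 0.0286. An adjusted p under 0.05 over 24 rows therefore needs many rows at that lowest value together, and its absence says little about a single row.

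mt-Tf had 1.00, 0.605, 0.771 and 0.684 counts per 1000000 coding counts in SostPB/- livers and 1.20, 1.35, 1.45 and 1.11 in Sost-/- livers. The groups did not overlap, at a log2 difference of -0.71 with a standard error of 0.17 (exact permutation test, p = 0.0286, adjusted p = 0.171 over 24 rows, n = 4 per group). The sums behind it are small, 19 counts in SostPB/- and 29 in Sost-/- livers, with exact 95% Poisson intervals of 11.4 to 29.7 and 19.4 to 41.6, which cover counting error only and overlap.

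mt-Tv had 0.771 to 2.21 counts per 1000000 coding counts in SostPB/- and 1.34 to 2.71 in Sost-/- livers, a log2 difference of -0.75 (SE 0.39, exact permutation test, p = 0.114, n = 4 per group). mt-Tl1 had 126.7 to 178.2 counts per 1000000 coding counts in SostPB/- and 164.5 to 266.1 in Sost-/- livers, at -0.35 (SE 0.20, exact permutation test, p = 0.171, n = 4 per group). Over the 24 rows the adjusted p was 0.249 for mt-Tv and 0.316 for mt-Tl1. For both the groups overlapped.

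A lower ratio was common to most rows that do not code. Of the 24 rows, 19 (79.2%) had a lower mean log2 ratio in SostPB/- livers, and the 5 members were among these. The groups did not overlap and were lower in SostPB/- in 3 of the 24 (12.5%), namely mt-Tf and the tRNA rows mt-Tc and mt-Ty, which were named after their values were seen. An unadjusted exact p under 0.05 was reached by 4 of 24 (16.7%), these 3 and mt-Tw. For mt-Tw the groups did not overlap either, but the ratio was higher in SostPB/- livers (log2 difference 0.99). An adjusted p under 0.05 was reached by 0 of 24 (0%), a limit hardly within reach given the lowest possible exact p. When edgeR was scaled by coding counts, the log2 fold change was -0.46 (SE 0.20) for mt-Rnr1 and -0.48 (SE 0.20) for mt-Rnr2, with an adjusted p of 0.394 for each. Both had an unadjusted p under 0.05 there, as did 1257 of 10020 rows (12.5%), and the median of all rows in that fit was -0.42.

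**Figure D3:**
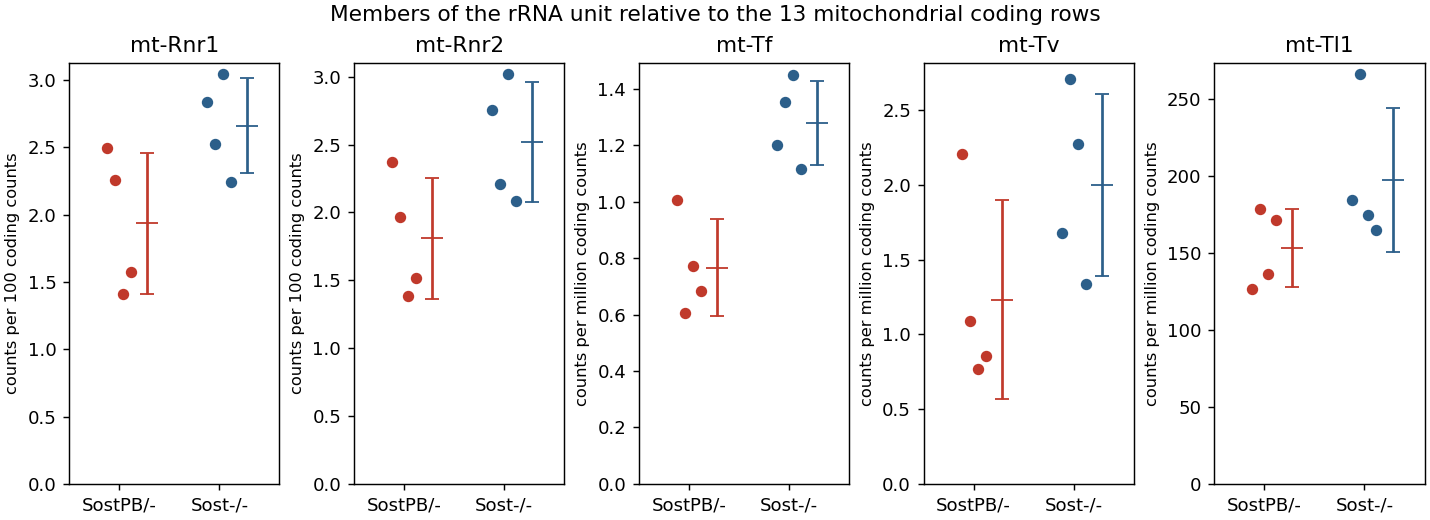
Counts of each member relative to the summed counts of the 13 coding rows, as counts per 100 coding counts for the rRNAs and counts per 1000000 coding counts for the tRNAs, with 1 point per library and the mean with 1 SD beside it (SostPB/- left, Sost-/- right, axes from 0). The groups overlap in all panels but that of mt-Tf, which rests on 19 and 29 counts.

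The share of the denominator varied between libraries. Coding rows held 52.0%, 56.5%, 62.3% and 56.8% of all counts in SostPB/- livers and 55.8%, 49.0%, 46.4% and 45.2% in Sost-/- livers. The groups overlapped, through Sost-/- replicate 1. SostPB/- replicate 3, with the largest coding share, had the lowest mt-Rnr1 and mt-Rnr2 ratios of all libraries. The part of the coding share in the ratios was not tested. The size of the difference depended on the coding row: against each of the 13 coding rows in turn the log2 ratio was lower in SostPB/- in 13 of 13 for every member. It ran from -1.07 to -0.27 for mt-Rnr1 and for mt-Rnr2, from -1.29 to -0.49 for mt-Tf, from -1.33 to -0.52 for mt-Tv and from -0.93 to -0.13 for mt-Tl1. In edgeR the log2 fold changes of the coding rows themselves ran from 0.18 (mt-Co1) to 0.87 (mt-Co2). The median over all rows tested was -0.01. A row near that median would thus also be lower against all 13, and the count is not particular to the members. Rows other than the members were not set against each coding row.

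Against mt-Nd1 alone, the first coding gene after the unit, the difference was wider. mt-Rnr2 had 0.262, 0.198, 0.159 and 0.160 counts per mt-Nd1 count in SostPB/- livers and 0.302, 0.270, 0.349 and 0.275 in Sost-/- livers. mt-Tl1, which lies between the pair, had 0.00140, 0.00180, 0.00156 and 0.00180 counts per mt-Nd1 count in SostPB/- livers and 0.00202, 0.00325, 0.00201 and 0.00216 in Sost-/- livers. In both every SostPB/- library lay below every Sost-/- library. Of the 13 coding rows taken singly, the same held against 3 for mt-Rnr1 and for mt-Rnr2 and 4 for mt-Tl1. It held against 7 for mt-Tf, which had only 4 to 10 counts per library, and 0 for mt-Tv. How many other rows do so was counted against mt-Nd1 only, so these counts have no background for the other coding rows. Against mt-Nd1 the log2 differences were -0.64 for mt-Rnr1 and for mt-Rnr2, -0.86 for mt-Tf, -0.90 for mt-Tv and -0.50 for mt-Tl1. The exact permutation tests gave an adjusted p of 0.0857 over the 24 rows for these except mt-Tv, whose adjusted p was 0.158. With this denominator 7 of the 24 rows (29.2%) did not overlap and were lower, and 1 did not overlap and was higher. An unadjusted exact p under 0.05 was found for 8 (33.3%).

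Ratios were also taken between members of the unit. mt-Tl1 had 0.00888 ± 0.00252 counts per mt-Rnr2 count in SostPB/- and 0.00809 ± 0.00276 in Sost-/- livers (SD, n = 4), a log2 difference of 0.14 with a standard error of 0.33. The groups overlapped, and that standard error is wide beside the 0.056 of the ratio of mt-Rnr2 to mt-Rnr1. Relative to mt-Rnr1 the log2 difference was -0.26 for mt-Tv (SE 0.27) and -0.22 for mt-Tf (SE 0.23), and the groups overlapped in both. Whether these differences are smaller than those against coding rows was not tested.

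**Figure D4:**
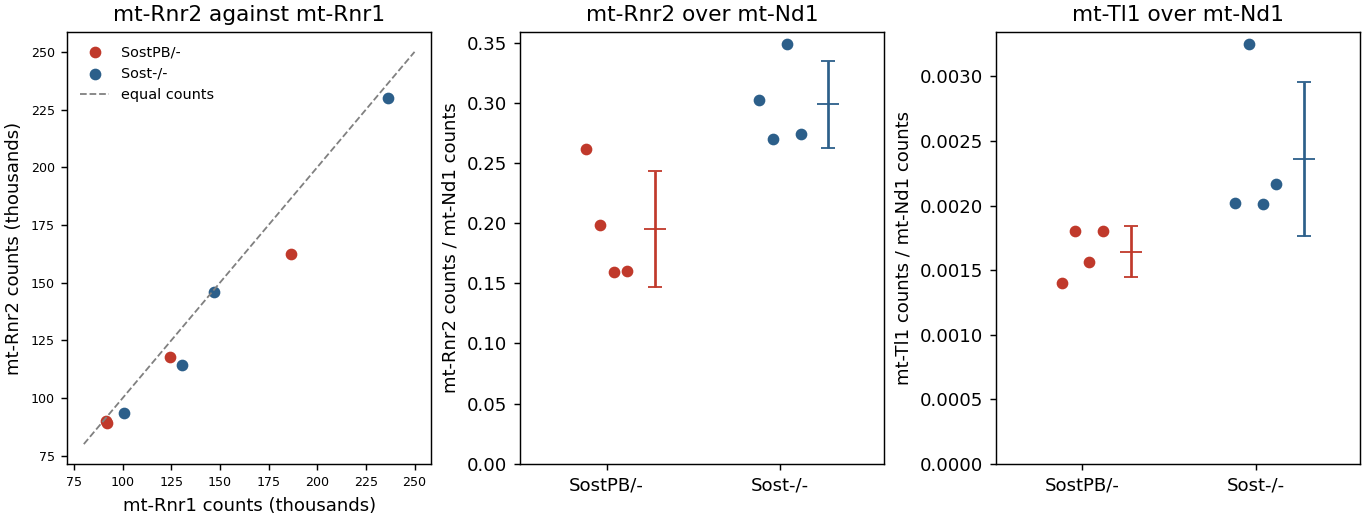
Left, mt-Rnr2 against mt-Rnr1 counts, 1 point per library, with a dashed line at equal counts; middle and right, counts of mt-Rnr2 and of mt-Tl1 per mt-Nd1 count with the mean and 1 SD (SostPB/- left, Sost-/- right, axes from 0). All 8 libraries lie below the line of equal counts for the rRNAs, and every SostPB/- library lies below every Sost-/- library in the other panels.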

How the data were processed

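Poly-A RNA of 8 livers was captured with a TIANSeq kit per the labels' protocols. HISAT2, StringTie, DESeq2 and the build mm10 are named in the submitters' processing notes. The sources used here give no versions, annotation release, strand setting or read length. The authors deposited whole-number counts for 55416 rows, all with a gene name, and a normalized signal for 22883 rows, in which 99.999% of values in the deposited table were whole within 0.001 after division by each column's smallest value. Libraries were assigned by title and description.

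Counts were tested over the whole table with edgeR 4.0.16 in R 4.3.3 (filterByExpr, TMM, quasi-likelihood test, Benjamini-Hochberg at 0.05), and the standard error was the log2 fold change over the root of F. DESeq2 1.42.0, limma 3.58.1 with voom, other scalings, no filter, a block for the replicate number and fits that omit 1 library each served as alternatives. The reads recovered from the normalized table were added after seeing the data. Ratios used log2 of counts plus 0.5 and exact two-sided permutation over mice. The p-values measure the spread between mice numbered as biological replicates. Genes alike the members were those with the smallest SD of the log2 count ratio among rows that averaged at least 10 counts. The rule named the members, mt-Nd1, up to 4 rows per mitochondrial list and the rows most alike each rRNA. Positions and sequences come from GENCODE M21, with anticodons found by their letters in a loop of 7 bases closed by at least 4 of 5 paired bases. In blastn, 0 nuclear transcripts of M21 matched a member over at least 50 bases at 95% identity or more, and the nuclear genome was not used here. Scripts were tested on simulated data. The members and lists were chosen with earlier results of these data known.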

Additional observations from a re-analysis of the deposited data

Results flagged for a closer look

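In 34 sets of 4 values the extreme library was judged by how far it lay from the next one, relative to the spread of its group. This singled out 3 sets, where chance alone gives about 1 in 20. mt-Tl1 counts per mt-Nd1 count were 0.00325 in Sost-/- replicate 2, against 0.00201 to 0.00216 in the other Sost-/- libraries. By total counts SostPB/- replicate 2, with 14613316, lay above the 9578086 to 10412498 of its group. Sost-/- replicate 1, with 14932773 counts, lay above the 9919069 to 10554376 of its group.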

How the results depend on the processing

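The count of rows called, 0 in edgeR, was 2 without the filter, 53 in DESeq2, 1 in limma and 0 to 4 on leaving out 1 library, and 0 in the other scalings and with recovered reads. On leaving out 1 library, 0 to 13 of the 13 coding rows reached an unadjusted p under 0.05, the most without Sost-/- replicate 1. Of all rows tested in these fits, 474 to 770 of 10353 to 10552 did. The log2 fold change was negative in 16 of 17 alternatives for mt-Rnr1 and for mt-Rnr2, and 0.10 for each without Sost-/- replicate 1. Among the 17, the recovered reads repeated the values of the main fit and are no separate check. Library totals and coding counts as the scale moved the median of all rows to -0.21 and -0.42. On leaving out 1 library the log2 fold change ran from -0.26 to 0.10 for mt-Rnr1, from -0.28 to 0.10 for mt-Rnr2 and from -0.12 to 0.17 for mt-Tl1. mt-Tl1, at 0.02, was -0.16 with library totals and -0.37 scaled by coding counts. The cause was not tested. The mt-Tl1 value was also negative without Sost-/- replicate 3 (-0.08) or 4 (-0.12) and without SostPB/- replicate 2 (-0.05), 3 (-0.02) or 4 (-0.0090). For mt-Tf and mt-Tv edgeR gave values only without the filter or, for mt-Tv, without some libraries.

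The ratio to coding counts was lower in SostPB/- in all 14 alternatives for each of the 5 members. The adjusted p of this ratio stayed above 0.05, at 0.0857 or more, a limit that the exact test could hardly reach. On leaving out 1 library the log2 difference ran from -0.63 to -0.35 for mt-Rnr1, -0.63 to -0.37 for mt-Rnr2, -0.85 to -0.61 for mt-Tf, -1.06 to -0.58 for mt-Tv and -0.43 to -0.20 for mt-Tl1. Its value was -0.20 for mt-Tl1 without Sost-/- replicate 2. The mt-Rnr2 to mt-Rnr1 difference ran from -0.036 to 0.037 and was positive without SostPB/- replicate 2 (0.037), Sost-/- replicate 1 (0.015) or Sost-/- replicate 3 (0.024).

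Same-numbered libraries did not deviate together, with correlations of -0.038 to 0.041 over the tested rows, and 2 of 8 correlated best with their own number. With replicate number as a block edgeR called 0 rows, and mt-Rnr1, mt-Rnr2 and mt-Tl1 were at -0.09, -0.09 and 0.05. In the paired test of the ratios, whose smallest p is 0.125, the adjusted p was 0.300 for the rRNAs and mt-Tf and 0.462 for mt-Tv and mt-Tl1. Depth limits mt-Tf and mt-Tv, at 4 to 14 counts per library.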
